A study of Arabidopsis thaliana with 38 samples.

Results

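The RNA followed here is that of 27 probe sets of the ATH-1 array that were low in the hsp90.2-3 mutant of Arabidopsis thaliana. They were not as low in 6 lines with an HSP90 insertion or RNAi construct that the rule looked at. They were chosen by measured values, out of 22746 probe sets that are not array controls. A level is the mean over the samples of a line of log2(signal + 16), where the signal is the linear MAS5 value of a probe set. A member had a Col-0 mean signal over 100 and a level in hsp90.2-3 at least 0.7 below that in Col-0 (a difference of -0.7 or less). In addition, no HSP90-TDNA line was as low as -0.4 against Col-0, and RNAi-A2, RNAi-B1 and RNAi-C1 each stayed above -0.3 against Control-3 and Control-1 averaged. The Col-0 minimum left 14529 probe sets, of which 196 were low in hsp90.2-3, 74 of these also met the condition on the HSP90-TDNA lines, and 27 met all. BHLH101, AT1G47400 and AT5G20790 are left out by the rule as well, but each failed another condition, so that this changed nothing. Of the 27 members, 19 have a single gene in the probe table, and the other 8 are called by their probe set names. All 27 passed the filter on low signals, which kept 16651 probe sets.

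Every sample was a pool of 10 seedlings of the Col-0 accession, 14 days old. The Methods give growth in long days on GM medium and harvest of aerial tissue, and do not name hsp90.2-3 there. The line hsp90.2-3 carries a point mutation in the ATP-binding domain of HSP90.2, and was represented by 3 samples. The 3 HSP90-TDNA lines (HSP90.3-TDNA, HSP90.2-TDNA, HSP90.1-TDNA) are homozygous for an insertion in 1 HSP90 gene each, and were grown beside untransformed Col-0 (stock CS60000), with 3 samples per line. The RNAi lines each carry a hairpin of HSP90 sequence behind the 35S promoter, built from construct A (RNAi-A1, RNAi-A2, RNAi-A3), B (RNAi-B1) or C (RNAi-C1), and each was selected as a line with a single insert. Control-1, Control-2 and Control-3 carry the same vector with its GFP spacer and without HSP90 sequence. The Methods give a laboratory stock of Col-0, not CS60000, as the parent of the RNAi and vector control lines. Experiment 1 held Control-2, RNAi-A3 and RNAi-A1 (2 samples each). Experiment 2 held RNAi-A2 (2 samples) and, with 3 samples each, Control-3, Control-1, RNAi-C1 and RNAi-B1, and experiment 3 held the HSP90-TDNA lines and Col-0. The line hsp90.2-3 is placed in none of these 3 experiments, so the mutation and the occasion on which its seedlings were grown and hybridized cannot be told apart in any value below. The labels call the samples biological replicates, each of them a pool, and p-values measure the spread between such pools.

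HSP90 is a cytosolic chaperone that holds a limited set of unstable client proteins, among them receptors and kinases, in a state from which they can signal. It works through a cycle of ATP binding and hydrolysis. Arabidopsis has several cytosolic HSP90 genes with overlapping functions, among them HSP90.1, which is induced by heat, and HSP90.2 and HSP90.3, which are expressed without it. The gene table used here gives no product names, and few of the 27 members have a gene symbol other than a locus. VTC4 (AT3G02870) is an L-galactose-1-phosphate phosphatase of the pathway that makes ascorbate, SWEET13 (AT5G50800) is a sucrose transporter of the plasma membrane, and GH3.9 (AT2G47750) is annotated as a putative enzyme that joins the auxin indole-3-acetic acid to amino acids. AT2G19400 is listed under kinase activity in the gene ontology listing of the study. AT1G42650, AT2G06430 and AT3G29120 are annotated as pseudogenes, and no role is given here for the other genes known by locus only.

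The arrays resembled each other closely. Over probe sets, all arrays but 1 correlated with the median profile at 0.975 to 0.987, and 1 array of RNAi-A3 stood apart at 0.499. That array was left out, and the second array of the same RNA stood for the sample. The leaf gene RCA, which encodes Rubisco activase, had line means of 17343 to 23537, with 17857 in hsp90.2-3 and 21863 in Col-0, and was the only one of 8 leaf markers named in the probe table. Of 8 root markers, EXPA7 (line means 41.6 to 115) and EXPA18 (38.1 to 156) were named, and of 4 flower markers none was. EXPA18 had mean signals of 80.3 in hsp90.2-3 and 129 in Col-0, on either side of the filter signal of 91.1. The part of these levels in the members' values was not tested. RNA from fewer cells of a type and less RNA per cell cannot be told apart in such tissue.

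In hsp90.2-3 the members lay between -1.46 and -0.71 of Col-0, with a median of -0.76 against -0.03 over all probe sets past the filter. These values are those the members were selected on, and are given without a test. The largest fall was that of 261505_at, followed by AT2G12190 (-1.38), AT3G56360 (-1.04), 254283_s_at (-0.95) and AT5G59350 (-0.93). Most members were near the threshold, and 17 of 27 lay between -0.8 and -0.7. Just inside it were AT2G13350 (-0.716), SWEET13 (-0.716) and AT5G50180 (-0.709), and just outside were AT5G44410 (-0.699), AT4G17810 (-0.694) and AT5G67200 (-0.685). A further 40 probe sets that met every other condition lay between -0.7 and -0.6.

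The heat map of line means shows the members relative to Col-0. The HSP90-TDNA lines were a little below Col-0 as well, with medians over the members of -0.28 in HSP90.3-TDNA, -0.11 in HSP90.1-TDNA and -0.21 in HSP90.2-TDNA, against -0.02, -0.01 and -0.03 over all probe sets. The 3 vector controls, which carry no HSP90 sequence, were also below Col-0, at -0.23 in Control-1, -0.38 in Control-2 and -0.29 in Control-3, where all probe sets had medians of -0.09, 0.04 and -0.10. Col-0 was the highest of 13 lines in 9 members, with a median rank of 12 counted from the lowest line, and hsp90.2-3 was the lowest line in 16 members. The rule took probe sets for a Col-0 mean well above that of hsp90.2-3, which favours high Col-0 values, so these medians and ranks are a description of the choice and nothing is read from them.

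**Figure D1:**
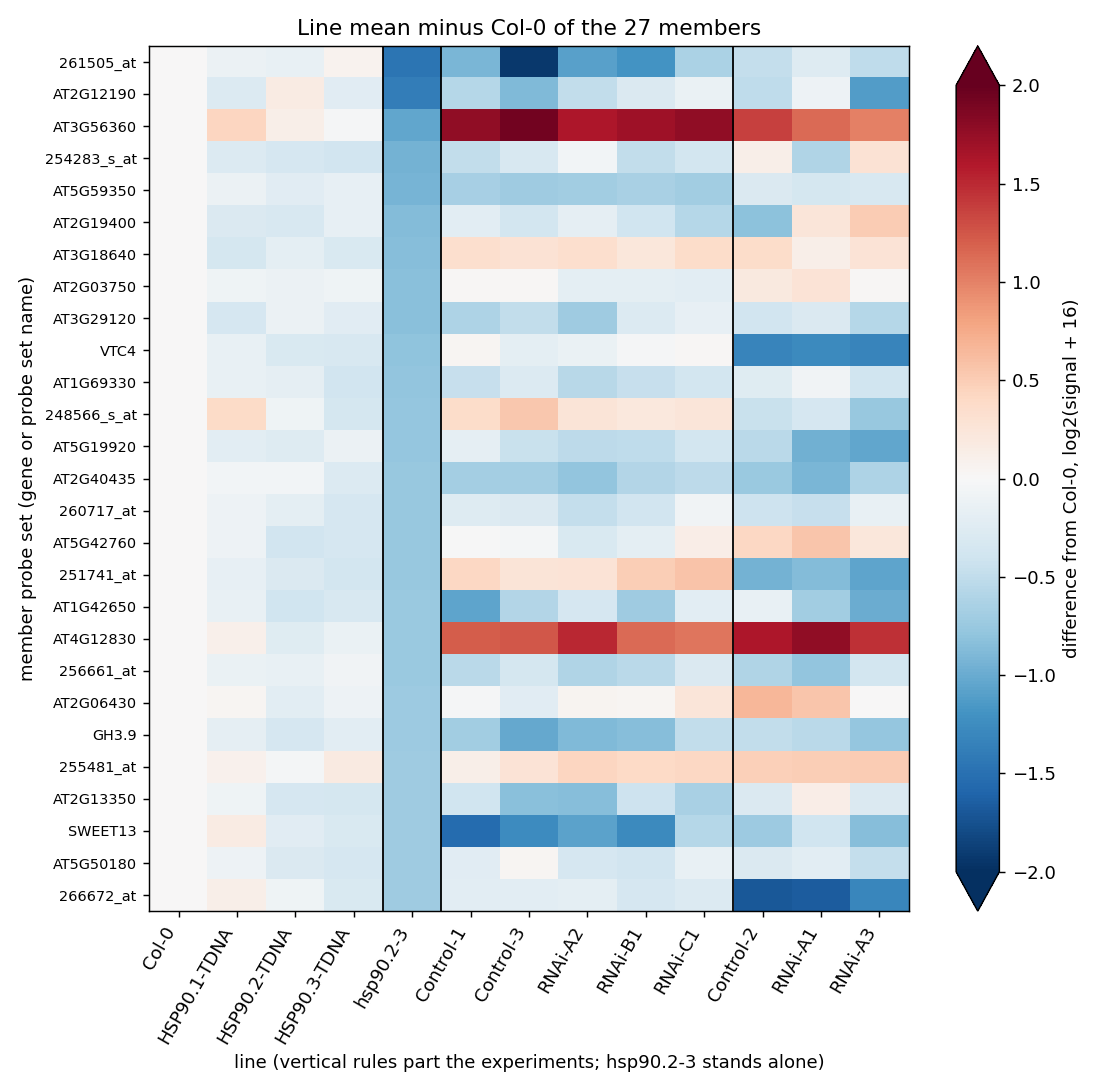
Line means of the 27 members minus Col-0, as log2(signal + 16), with 1 row per member (largest fall in hsp90.2-3 at the top) and 1 column per line. Blue is below and red above Col-0; hsp90.2-3 is blue in every row by choice of the members, AT3G56360 and AT4G12830 are red in all 8 RNAi and vector control lines, and VTC4, 251741_at and 266672_at are blue in Control-2, RNAi-A1 and RNAi-A3.

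The 3 hsp90.2-3 samples did not carry the falls equally. Their medians over the members were -0.89, -0.65 and -0.72 against the Col-0 mean, and 20, 10 and 15 members lay at or below -0.7 in samples 1, 2 and 3. AT3G56360 and AT5G59350 were the 2 members at or below -0.7 in all 3 samples, while 14 members were so in 2 samples and 11 in 1. The rule read 29 samples, and was applied again with each of them left out. AT5G59350 and AT2G12190 stayed members in all 29 cases, AT3G56360, AT2G03750 and 261505_at in 28, and AT5G50180 in the fewest, 18. Without Col-0 sample 1 the fewest of the 27 members, 12, were left, and the rule then gave 29 in all. It gave 17 without Col-0 sample 3, 44 without hsp90.2-3 sample 2 and 42 without hsp90.2-3 sample 3. The SD within lines on the log2 scale, as moderated by limma, had a median of 0.24 over the members and 0.19 over all probe sets past the filter. The members lay low among the probe sets past the filter. Their median Col-0 signal was 207, against 350.2 over all probe sets past the filter. Without that filter, the medians of the arrays, leaving out the outlying one, ran from 171 to 221. Of the members, 13 were under 200 and 6 were at 1000 or more.

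**Figure D2:**
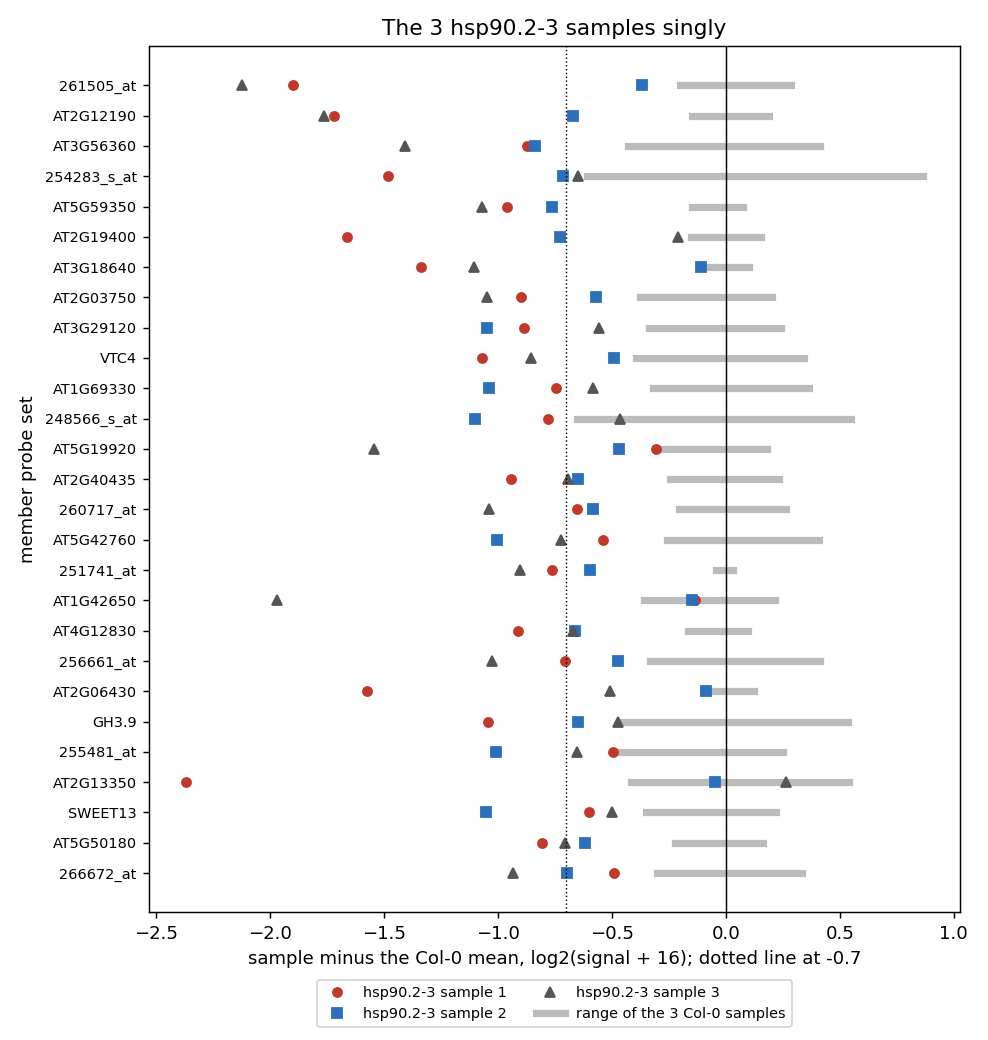
Each hsp90.2-3 sample minus the Col-0 mean, as log2(signal + 16), for the 27 members (points), with the range of the 3 Col-0 samples as grey bars and the threshold of -0.7 dotted. AT5G59350 and AT3G56360 have all 3 points past the dotted line, whereas AT2G13350, AT1G42650 and AT5G19920 each have 1 point far below the others.

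In 23 members every hsp90.2-3 sample was below every Col-0 sample, which was so in 14.1% of all probe sets tested, and nothing is read from this count, since both lines entered the rule. In 11 members every hsp90.2-3 sample was also below every HSP90-TDNA sample, against 2.01% of all probe sets, again with lines that the rule used. They were AT2G12190, AT3G56360, AT5G59350, AT2G03750, AT3G29120, AT4G12830, 251741_at, 255481_at, 256661_at, 260717_at and 266672_at. In 8 members hsp90.2-3 lay below every sample of Control-1, Control-2 and Control-3, against 9.42% of all probe sets. In 4 members, AT3G56360, AT2G03750, AT4G12830 and 255481_at, every hsp90.2-3 sample was below every one of the 32 samples of the other 12 lines, against 0.547% of all probe sets. The rule used hsp90.2-3 and 9 of those 12 lines, among them Control-1 and Control-3, so a share above that of all probe sets follows in part from the choice, and nothing is read from the last 2 counts either.

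AT3G56360 had the widest span of line means among the members. Its signals were 1080.0, 1948 and 1474 in Col-0 and 789, 809.6 and 540.1 in hsp90.2-3, with means of 1500.5 ± 435 (SD, n = 3) and 713 ± 150 (SD, n = 3). The hsp90.2-3 samples were all below the lowest Col-0 sample, and below the 9 HSP90-TDNA samples (1225 to 2218, median 1634). The 8 vector control samples ranged from 3727 to 5929 with a median of 5194, well above Col-0, and the 12 RNAi samples lay beside them (2681 to 5102, median 4577). Samples of experiment 1 (2681 to 3860.4) and experiment 2 (4298 to 5929) did not overlap, and those of experiment 3 were below both. Against Col-0 the difference of hsp90.2-3 was -1.04, and against the mean of the 3 vector controls it was -2.73.

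AT4G12830 was also lowest in hsp90.2-3 and higher in the vector controls than in Col-0, while experiment 1 was not below experiment 2 in it. It stood at 225, 267 and 273 in Col-0 and at 128, 154 and 154 in hsp90.2-3, with 9 HSP90-TDNA samples in between and above (168 to 413, median 228). The vector controls ranged from 574 to 851 with a median of 640.5, and none overlapped Col-0. The difference of hsp90.2-3 was -0.75 against Col-0 and -2.10 against the vector controls. For these 2 members every sample of experiment 3 was below every sample of experiments 1 and 2, which was so in 1.47% of all probe sets. Col-0 itself was lower than the mean of the vector controls by a difference of -1.69 in AT3G56360 and -1.36 in AT4G12830, more than the difference between hsp90.2-3 and Col-0 in either. The untransformed line, its seed stock, the vector and the experiment differ together here and cannot be told apart.

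For AT2G03750 the signals were 1016, 1491 and 1528 in Col-0 and 703, 886 and 633 in hsp90.2-3. The HSP90-TDNA samples (1110.0 to 1405, median 1222) and the vector controls (1211 to 1579, median 1415) lay within about the range of Col-0. Only hsp90.2-3 samples were below the lowest Col-0 sample. The difference of -0.84 against Col-0 was -0.92 against the vector controls. The probe set 255481_at, which has no gene in the probe table, showed 149, 88.3 and 154 in Col-0 and 85.6, 55.3 and 75.1 in hsp90.2-3. The highest hsp90.2-3 sample was close below the lowest Col-0 sample. Its vector control samples ranged from 114 to 189 with a median of 175, and the difference against them was -1.01. The difference was as large or larger against the vector controls in these 4 members and in AT3G18640 (-1.18) and AT5G42760 (-0.88), among the 8 below every vector control sample.

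**Figure D3:**
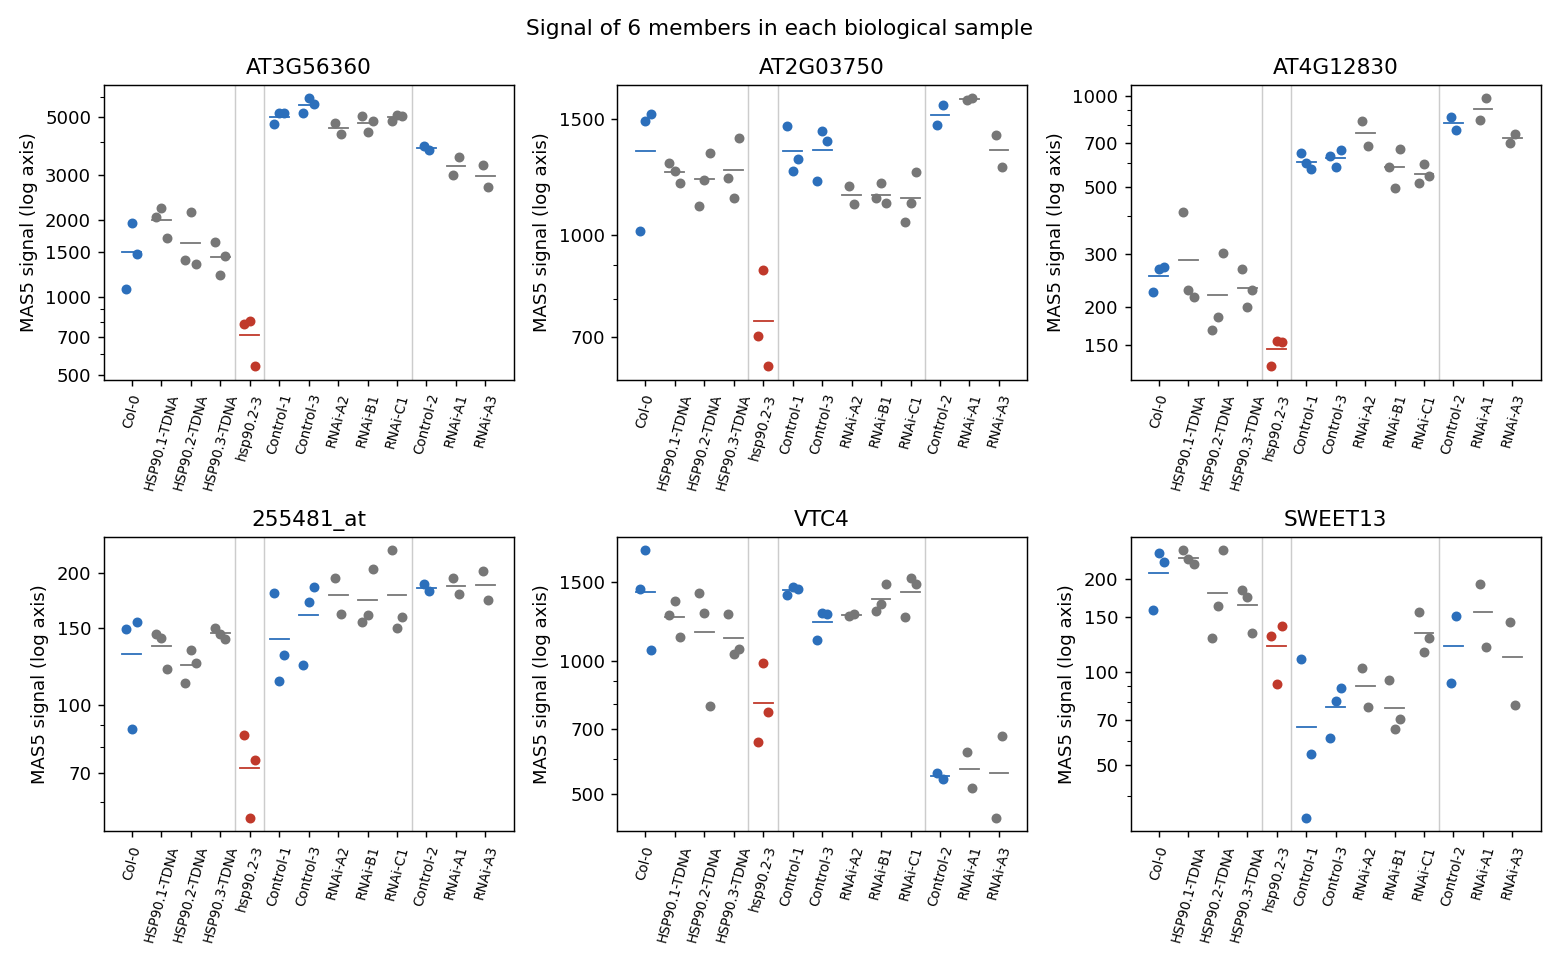
MAS5 signals (log axes) of 6 members in each of the 35 biological samples, by line, with the mean of a line as a bar. Red points are hsp90.2-3, blue points Col-0 and the vector controls, grey points the HSP90-TDNA and RNAi lines, and vertical rules part the experiments. The red points are lowest in the first 4 panels. The lines of experiment 1 are lowest for VTC4, and Control-1 and Control-3 lie below hsp90.2-3 on average for SWEET13.

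VTC4, of the ascorbate pathway, gave signals of 1448, 1773 and 1059 in Col-0 and 657, 988 and 764 in hsp90.2-3, a difference of -0.81. Control-1 (1407, 1465 and 1446) and Control-3 (1114, 1280.2 and 1273) were near Col-0. Control-2, which carries no HSP90 hairpin, stood at 559 and 543, below every hsp90.2-3 sample. RNAi-A1 (622 and 517) and RNAi-A3 (443 and 677) of the same experiment were as low as Control-2. The difference of hsp90.2-3 was -0.85 against Control-1, -0.61 against Control-3 and 0.51 against Control-2.

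The levels of 3 unnamed members also split between experiments 1 and 2, but Control-2 was not below hsp90.2-3 in all of them. For 251741_at, hsp90.2-3 had 789, 889 and 715 and Col-0 had 1380.5, 1311 and 1361, while Control-2 had 719 and 663 against 1576 to 2092 over experiment 2. For 266672_at, hsp90.2-3 had 1869, 1620.0 and 1372, Col-0 had 2133, 3324 and 2574 and Control-2 had 559 and 1143. For 248566_s_at, hsp90.2-3 had 1213, 966 and 1512, Col-0 had 1325, 3069.6 and 2243 and Control-2 had 1601 and 1461. In these 3, VTC4 and AT3G56360, every sample of experiment 1 was below every sample of experiment 2 (5 of 27 members, 5.34% of all probe sets). The reverse order held in AT5G59350 alone, against 7.84% of all probe sets. In 4 members the level of Control-2 was below that of hsp90.2-3, by 0.99 in 266672_at, 0.51 in VTC4, 0.20 in 251741_at and 0.01 in SWEET13.

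SWEET13, the sucrose transporter, was high in experiment 3. It gave 158, 242 and 227 in Col-0, 247, 232 and 223 in HSP90.1-TDNA and 131, 91.2 and 141 in hsp90.2-3. Control-1 (111, 33.9 and 54.6) and Control-3 (61.4, 81.0 and 89.2) were lower than hsp90.2-3 by their means, and Control-2 (92.0 and 152) overlapped it. The difference of -0.72 against Col-0 turned to 0.46 against the vector controls. SWEET13 was alone in its family at this size. The SWEET genes carry sugars across membranes, and 14 of them had a probe set of their own, 12 of which passed the filter. Among the others the differences between hsp90.2-3 and Col-0 ran from -0.48 in SWEET7, which did not pass the filter, to 0.41 in SWEET4. SWEET11 had mean signals of 4442 and 4317.

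GH3.9 showed 82.2, 179 and 110.3 in Col-0 and 49.2, 69.6 and 80.7 in hsp90.2-3. The mean fell by 0.72 on the log2 scale, and the Col-0 samples themselves differed by more. The vector control samples ranged from 46.4 to 92.4 with a median of 60.6, at the level of the mutant, and the difference against them was 0.02. Of its family, GH3.3 was at 0.50 against Col-0 and at 1.34 against the vector controls, and GH3.17 at 0.02 and 0.05. Of 6 auxin response genes with a probe set of their own, 1 (GH3.9) was at -0.7 or less against Col-0 in hsp90.2-3 and 1 was at 0.7 or more, with a median of 0.15. None of the other lists of Arabidopsis genes held a member, but most of these had few genes named in the probe table. Lists made from product names matched almost none, so this does not show that the members fall outside those families.

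AT2G40435 was at one level in hsp90.2-3 and the vector controls. Its signals were 249, 352 and 300.2 in Col-0 and 147, 184 and 178 in hsp90.2-3, which do not overlap. The vector controls ranged from 163 to 191 with a median of 179, and the difference against them was -0.06. They overlapped hsp90.2-3, whose lowest sample (147) was below all of them. AT5G59350 had 505, 433 and 509 in Col-0 and 239.8, 277 and 221 in hsp90.2-3, with little spread in either line. Its vector control samples ranged from 266 to 414 with a median of 315, all below Col-0 and some below the highest hsp90.2-3 sample, and the difference against them was -0.38. Over the 27 members the median difference of hsp90.2-3 from the mean of the 3 vector controls was -0.44, against 0.05 over all probe sets. It was below 0 in 24 members and at or below -0.7 in 10, from -2.73 in AT3G56360 to 0.46 in SWEET13. Taken singly, Control-1, Control-2 and Control-3 gave medians of -0.55, -0.45 and -0.50. The same 3 hsp90.2-3 samples enter both differences, so the second is no independent check of the first.

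**Figure D4:**
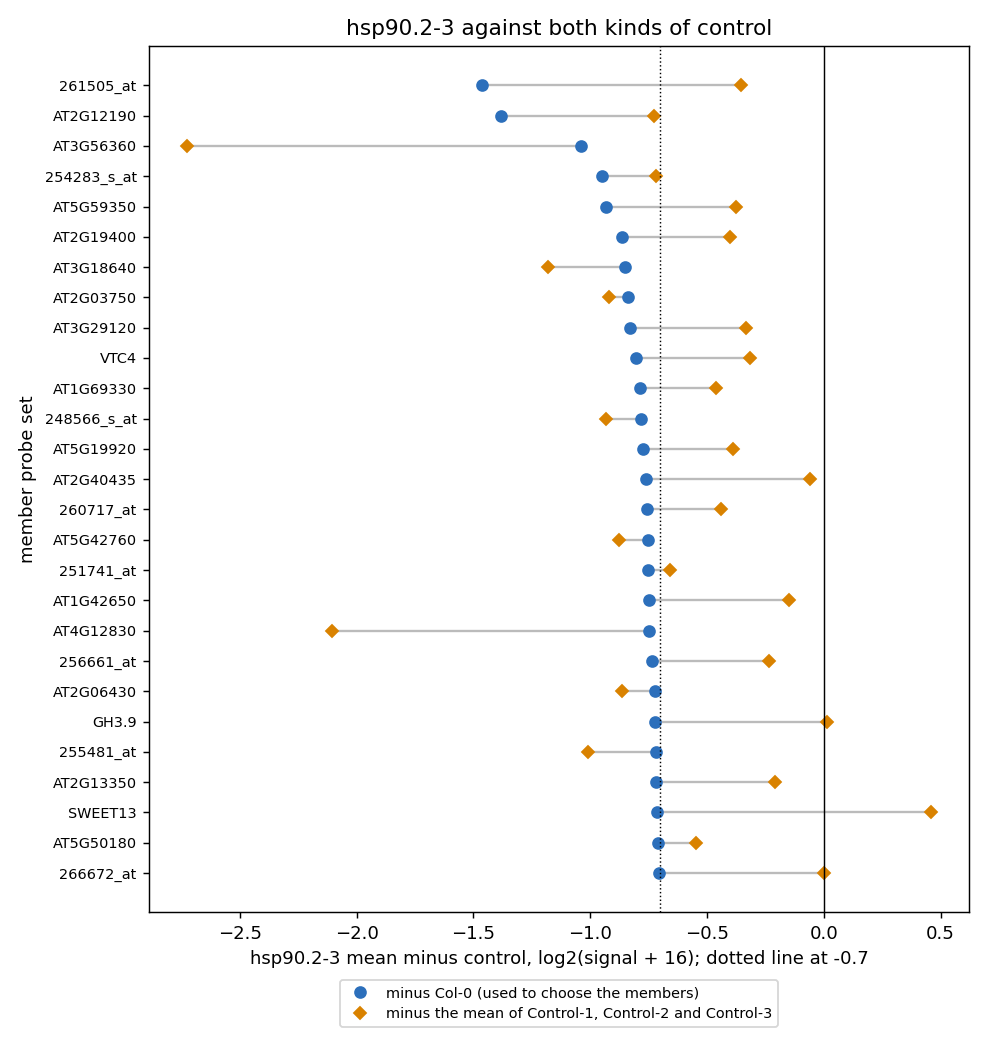
Difference of the hsp90.2-3 mean from Col-0 (blue circles) and from the mean of the 3 vector controls (orange diamonds), as log2(signal + 16), for the 27 members, with a grey line joining both. All circles lie left of the dotted line at -0.7 by choice; 10 diamonds do, and those of GH3.9, 266672_at and SWEET13 lie at or right of 0.

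Several members with large falls were dim and uneven. AT2G12190 showed 111, 102 and 134 in Col-0 and 23.9, 66.6 and 22.7 in hsp90.2-3, where the middle sample stood well above the others. The unnamed 261505_at behaved likewise, with 223, 169 and 155 in Col-0 and 36.6, 136 and 29.1 in hsp90.2-3, and its samples in Control-3 (45.4, 54.0 and 15.4) were as low as the low pair of hsp90.2-3. AT2G19400, listed under kinase activity, showed 103, 90.8 and 116 in Col-0 and 21.6, 55.8 and 86.8 in hsp90.2-3. Sample 3 of hsp90.2-3 lay close below Col-0, and without sample 1 the difference was -0.47. AT3G18640 showed 175, 161 and 150.5 in Col-0 and 54.4, 149 and 66.7 in hsp90.2-3, against 173 to 242, median 210.5, in the vector controls. Both low samples of AT3G18640 were below every other sample of the series, and the middle one was within the range of the HSP90-TDNA lines (93.5 to 186, median 141).

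In 4 members the difference from Col-0 was above -0.4 once the lowest hsp90.2-3 sample was left out, at 0.11 in AT2G13350, -0.14 in AT1G42650, -0.30 in AT2G06430 and -0.39 in AT5G19920. AT2G13350 showed 117, 92.9 and 195 in Col-0 and 12.2, 124 and 158 in hsp90.2-3, so the other 2 samples were inside the Col-0 range. AT1G42650, a pseudogene, showed 101, 149.9 and 159 in Col-0 and 121, 119.8 and 22.5 in hsp90.2-3, with 2 samples inside the Col-0 range as well. AT5G19920 showed 188, 132 and 178 in Col-0 and 129.9, 114 and 45.9 in hsp90.2-3. Sample 1 of hsp90.2-3 was just below the lowest Col-0 sample, and 1 sample each of RNAi-A1 (46.6 and 127) and RNAi-A3 (44.8 and 109) was as low as sample 3 of hsp90.2-3. AT2G06430, also a pseudogene, showed 176, 157 and 149 in Col-0 and 43.3, 149.8 and 108 in hsp90.2-3, and its middle sample was inside the Col-0 range. For 254283_s_at (352, 117 and 153 in Col-0 and 56.5, 107 and 113 in hsp90.2-3) it was Col-0 that was uneven, with 1 sample far above the others.

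The remaining members lay between -0.83 and -0.71 of Col-0. AT1G69330 showed 364, 221 and 269 in Col-0 and 160.1, 128 and 181 in hsp90.2-3, and no hsp90.2-3 sample reached a vector control sample (194 to 258, median 219). AT5G50180 showed 602, 648 and 492 in Col-0 and 323, 371 and 348 in hsp90.2-3, and its vector controls lay at 408 to 656, median 534, again with no overlap. AT5G42760 showed 114, 104 and 175 in Col-0 and 83.2, 55.8 and 71.4 in hsp90.2-3, with vector controls at 109 to 204, median 131. These 3, with AT3G18640 and the 4 members low against all lines, were the 8 members whose hsp90.2-3 samples lay below all vector control samples. AT3G29120, a pseudogene as well, showed 127, 197 and 176 in Col-0 and 81.4, 71.1 and 106 in hsp90.2-3, and its vector controls (92.3 to 138, median 109.8) overlapped hsp90.2-3. The unnamed 256661_at showed 726, 427 and 513 in Col-0 and 327, 386 and 258 in hsp90.2-3, overlapping the vector controls (326 to 455, median 383). The unnamed 260717_at showed 172, 154 and 219.5 in Col-0 and 109, 115 and 79.3 in hsp90.2-3, and its vector controls (108 to 174, median 155) overlapped hsp90.2-3 too.

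Control-2, RNAi-A3 and RNAi-A1 took no part in the choice of members, so their comparison could be tested. The question was whether these probe sets were also low in a pair of lines with reduced HSP90 that the rule did not look at. RNAi-A1 and RNAi-A3 carry construct A, as does RNAi-A2, and the rule left out probe sets that were low in RNAi-A2. It also left out those low in RNAi-B1, RNAi-C1 or an HSP90-TDNA line. Falls shared with those lines were thus largely removed beforehand, so a lack of falls here cannot answer the question for falls of that kind. The limma model held 1 mean per line over all 35 samples, with Benjamini-Hochberg adjustment across all 16651 probe sets past the filter. No member was called at an adjusted p under 0.05 in RNAi-A1, where 0.00601% of all probe sets were called, in RNAi-A3 (0.012%) or in the mean of both lines (0.024%). At an unadjusted p under 0.05 there was 1 member in each comparison, against 4.29%, 5.54% and 4.10% of all probe sets. The medians over the members were 0.04 in RNAi-A1, -0.12 in RNAi-A3 and -0.03 in the mean of both, against 0.01, -0.01 and -0.004 over all probe sets. With few calls over all probe sets and 2 samples per line, this does not show that the members were equal in these lines.

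The member at an unadjusted p under 0.05 was AT2G19400 each time, and it was higher than Control-2. Its signals were 58.4 and 51.9 in Control-2, 128 and 125 in RNAi-A1 and 191 and 122 in RNAi-A3, so that all 4 RNAi samples were above both control samples. The limma change was 1.07 in RNAi-A1 (SE 0.37, adjusted p = 0.917) and 1.33 in RNAi-A3 (SE 0.37, adjusted p = 0.374). Both share Control-2, whose samples were lower than those of Control-1 (71.4, 84.6 and 107) and Control-3 (77.4, 92.9 and 61.6). The mean over both lines was 1.20 (SE 0.32, adjusted p = 0.502). The gene appears in the gene ontology listing of the study for RNAi-A1, so it is not independent of earlier results.

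The lowest member with a gene in both lines was AT1G42650, with 112 and 129 in Control-2, 120.1 and 47.1 in RNAi-A1 and 119 and 26.5 in RNAi-A3. Its limma changes were -0.55 (SE 0.50, adjusted p = 0.9998) and -0.84 (SE 0.50, adjusted p = 0.959), and in each line 1 sample was at the level of Control-2. The unnamed 254283_s_at was lowest of all in RNAi-A1, at -0.71 (SE 0.44, adjusted p = 0.9998) by limma. In RNAi-A1, 3 members were at -0.3 or less (8.23% of all probe sets) and 4 were at 0.3 or more (6.8%). In RNAi-A3, 6 members were at -0.3 or less (11.7% of all probe sets) and 2 were at 0.3 or more (6.57%). AT5G19920 and AT1G42650 were at -0.3 or less in both lines, and both are among the 4 members above -0.4 in hsp90.2-3 without its lowest sample. AT3G56360, AT4G12830, AT2G03750 and 255481_at, which were lowest in hsp90.2-3 against all other lines, had changes of -0.23, 0.16, 0.08 and 0.02 in RNAi-A1 and -0.36, -0.16, -0.18 and 0.03 in RNAi-A3.

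**Figure D5:**
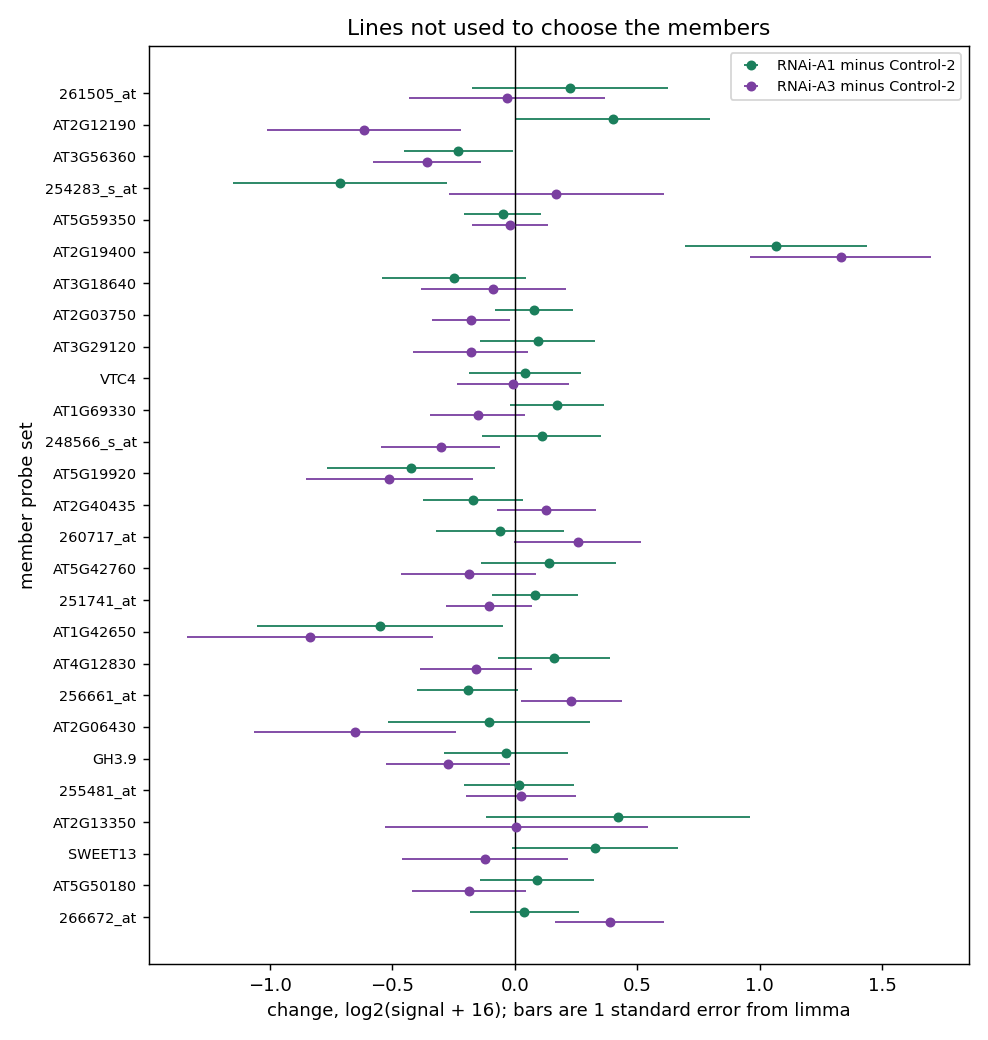
Change of the 27 members in RNAi-A1 (green) and RNAi-A3 (purple) against Control-2, as log2(signal + 16), with bars of 1 standard error from the limma model (2 samples per line). The points lie on both sides of 0, and AT2G19400 lies highest in both lines, at 1.07 and 1.33.

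The difference between 2 control lines gave a measure of what lines without an HSP90 hairpin can show. Between Control-3 and Control-1 no member was called, while 0.042% of all probe sets were, and the median over the members was -0.01. The lowest was 261505_at, with 83.0, 85.7 and 97.4 in Control-1 and 45.4, 54.0 and 15.4 in Control-3, which do not overlap. Its limma change was -1.03 (SE 0.33, adjusted p = 0.473), and it was the 1 member at an unadjusted p under 0.05, against 6.74% of all probe sets. Among members with a gene, the lowest was AT2G13350 at -0.44 (SE 0.44, adjusted p = 0.942) and the highest AT1G42650 at 0.47 (SE 0.41, adjusted p = 0.917), both by limma. The probe set with the largest fall in hsp90.2-3 also had the largest difference between 2 controls.

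Some features of the members were not used by the rule. Names ending in _s_at, for probe sets shared by related transcripts, were carried by 3 members (11.1%) against 3.39% of all probe sets, and _x_at, for probe sets some of whose probes match other sequences, by 1 member (3.70%) against 0.264%. Of the 19 members with 1 gene, 3 (15.8%) were pseudogenes, against 1.64% of 9214 genes tested. AT3G29120 and AT2G06430 are among both, with probe sets ending in _s_at and _x_at, so that transcripts of related genes cannot be told apart in their signals. On chromosomes 1, 2, 3, 4 and 5 there were 2, 7, 4, 1 and 5 members, where all genes tested had 26.4%, 15.0%, 20.4%, 14.7% and 23.6%. No member had another within 5 genes, and the closest, AT5G50180 and SWEET13, were 84 genes apart. No sequence is printed here, as no promoter, protein or probe sequences were used.

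From sample to sample the correlation between members was low on average, with pairs of both signs. With the mean of each line removed, the mean correlation over the 351 pairs of members was 0.04 across 35 samples, and 0.007 over all probe sets. It was 0.03 without hsp90.2-3 and Col-0. In 10 pairs r was over 0.5 and in 5 under -0.5. The share of such pairs over all probe sets was not computed, so nothing is read from these counts. The highest between members with a gene were 0.60 for AT2G06430 and AT2G13350, 0.54 for AT3G56360 and AT2G03750, 0.53 for AT5G59350 and AT3G18640, 0.52 for AT4G12830 and AT5G50180, and 0.50 for AT3G56360 and AT2G40435. The lowest was -0.70 for VTC4 and AT5G42760, and -0.77 for 248566_s_at and 256661_at among all members. These correlations are a description, since samples share their array, RNA pool and experiment.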

How the data were processed

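The deposited intensity values are linear MAS5 signals made by the authors, 1 for each array and probe set, and the MAS5 version is not given in the sources used here. The Methods name PLIER instead. The trimmed mean of every array, 499.7 to 499.9, is that of MAS5 output scaled to a common target. Array medians ran from 171 to 221 without the outlying array, and precision is limited by how few arrays there are per line.

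Technical arrays of a sample were averaged as log2(signal + 16), and 64 control probe sets were not analysed here. The filter kept probe sets with at least 1 line mean over a signal of 91.1, the 35th percentile. Tests used limma 3.58.1 (R 4.3.3), with 22 degrees of freedom between samples and 3.27 from the prior, after the code had been tested on simulated data. Of the probe sets, 13513 have 1 gene, 503 several and 8730 none in the probe table, and symbols come from the RefSeq table of TAIR10.1.

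The members and gene lists were chosen with earlier results of these data known. Named genes are the 12 largest falls, members of lists, the highest and lowest of each tested comparison, those beside the threshold and the 5 best correlated pairs. The other members were named after their values were seen. Alternatives were the offset, the filter, quantile normalization, the replicate number as a block, the arrays and samples used, and the methods' t-test.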

Additional observations from a re-analysis of the deposited data

How the results depend on the processing

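The choice of members depended on small differences. The rule gave 27 members with an offset of 16, and 33 with an offset of 4 (23 of the 27 kept), 33 after quantile normalization (21 kept) and 16 with an offset of 64 (9 kept), where the median difference from Col-0 of the 27 members was -0.63. Leaving out 1 sample at a time gave 17 to 44 members, as named in the report. In the tested comparisons no member was called under any alternative except with the outlying array kept. That array raised the probe sets called in RNAi-A3 from 2 to 712, with AT2G19400 among them (1.41, adjusted p = 0.0393 by limma), put the RNAi-A3 median over the members at -0.17, and gave 1 call in the mean of both lines and 4 between the controls. Quantile normalization gave 4 calls in RNAi-A1 and 4 in RNAi-A3, with a member median of -0.11 in RNAi-A3. The RNAi-A3 median was -0.14 with an offset of 4, and -0.0947 with an offset of 64, where RNAi-A3 had 1 call. Without a filter there were 2 calls in RNAi-A1 and 12 between the controls, and the 50th percentile gave 2 in RNAi-A1. With 1 technical array per sample there were 3 calls in RNAi-A1 and 2 in the mean, and an RNAi-A3 median of -0.0573. A fit on the lines of each experiment alone gave 0 calls in RNAi-A1, RNAi-A3 and their mean, and 106 between the controls. The methods' t-test between the controls called 0 probe sets after Benjamini-Hochberg adjustment, 1192 at an unadjusted p under 0.05 (3 members), and 157 at the methods' threshold (0 members). Leaving out 1 sample at a time gave 2 to 10 calls in RNAi-A1, 1 to 47 in RNAi-A3 (47 without Control-2 sample 2), 1 to 26 in the mean and 2 to 6 between the controls, where member medians were -0.118 to -0.0641 in RNAi-A3 and -0.0432 to 0.04996 between the controls. Same-numbered samples correlated over 0.1 in 0 of 6 pairs (experiment 1), 10 of 26 (experiment 2) and 11 of 18 (experiment 3). Their mean correlations were -0.07, 0.06 and 0.15. Other pairs of experiment 3 had -0.08, which is no separate evidence, since line means had been removed. The main fit did not pair samples by number, and whether same-numbered samples shared a batch was not tested. With the replicate block the calls were 5 in RNAi-A3, 14 in the mean and 12 between the controls. The causes were not tested. With 2 or 3 samples per line, only large changes could be called.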
